A study of Homo sapiens with 12 samples.

Results

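CES1 and AADAC encode drug- and lipid-hydrolysing esterases that are abundant in human liver, and their levels were compared across 4 groups of HepG2 cells. Both genes were chosen from their levels in these same groups, so every level and difference of CES1 and AADAC is given as a description with no test. They are 2 of 14884 genes with a name in the value table, and both symbols were found: CES1 with 2 probe sets (16826639 and 16819152) and AADAC with 1 (16947045). HepG2 cells come from a liver tumour, are an established line, and carry 1 allele of the β-catenin gene that lacks exon 3, the part that carries the phosphorylation sites for its turnover, so a truncated and a full-length protein are present in every group, controls included. The cells received a small interfering RNA against the full-length form (sißCat-WT), against the truncated form (sißCat-mut), against both (sißCat-both), or a control RNA (siCtrl), and total RNA was taken at 120 h, with 3 arrays in each of the 4 groups. The design asks how gene expression depends on either form of the protein. All groups are 1 cell line, and the targeted gene is not analysed here, so the groups rest on their labels alone.

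Carboxylesterase 1, the product of CES1, is a serine hydrolase held in the lumen of the endoplasmic reticulum that cleaves ester drugs such as clopidogrel and oseltamivir and also acts on triglycerides and cholesteryl esters. Arylacetamide deacetylase, the product of AADAC, sits in the membrane of the same compartment and hydrolyses drugs such as phenacetin and flutamide. It has also been linked to the mobilisation of stored lipid for lipoprotein assembly. Both are abundant in hepatocytes, where β-catenin acts both as a junction protein and as the effector of Wnt signalling. The 2 genes lie on different chromosomes in GRCh38.p14, CES1 at chr16:55802851-55833096 and AADAC at chr3:151814116-151828488. RefSeq's table of promoters for GRCh38.p14 matched 1 of the 2 genes, AADAC, and not CES1.

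The 250 bases before the AADAC start site (chr3:151813866-151814115, plus strand) are shown because AADAC had one of the largest differences of all genes in these arrays. Beside them stand the same windows of OTC (chrX:38352354-38352603, plus strand) and BHMT (chr5:79111559-79111808, plus strand), the named genes closest to AADAC and among the closest to CES1 in their pattern over the arrays. Capitals mark matches, on either strand, to the motifs of 6 factors that were picked after the values were known.
AADAC: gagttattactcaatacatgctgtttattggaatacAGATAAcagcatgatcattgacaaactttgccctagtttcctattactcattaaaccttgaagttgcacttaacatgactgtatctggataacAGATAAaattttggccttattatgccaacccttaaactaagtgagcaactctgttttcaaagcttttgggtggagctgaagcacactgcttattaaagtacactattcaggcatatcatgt
OTC: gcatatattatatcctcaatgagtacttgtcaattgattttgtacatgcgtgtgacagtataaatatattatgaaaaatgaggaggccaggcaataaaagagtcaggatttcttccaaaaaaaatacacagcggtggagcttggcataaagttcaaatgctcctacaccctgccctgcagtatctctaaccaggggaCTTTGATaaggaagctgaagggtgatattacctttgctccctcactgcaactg
BHMT: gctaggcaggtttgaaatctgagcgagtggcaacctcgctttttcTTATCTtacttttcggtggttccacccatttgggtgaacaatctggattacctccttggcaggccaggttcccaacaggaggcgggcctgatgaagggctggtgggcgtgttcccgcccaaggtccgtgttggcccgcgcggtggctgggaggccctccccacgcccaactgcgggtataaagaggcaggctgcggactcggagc

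The AADAC window held the GATA letters at 2 places, 214 and 121 bases before the start site, and none of the other 5 motifs. The OTC window held the TCF/LEF letters once, 53 bases before the start site, and the BHMT window the GATA letters once on the minus strand, 205 bases before it. No 2 matches overlapped. Among 35116 promoter windows of this length, 9.17% held the GATA letters, 2.26% those of TCF/LEF, 9.05% those of C/EBP, 2.98% those of FOXA, 0.94% those of HNF4 and 0.0057% those of HNF1. The letters searched were AGATAA for GATA factors. They were CTTTGAT for TCF/LEF, the partners of β-catenin. They were TTGCNNAA for C/EBP. They were TGTTTAC for FOXA. They were TGNACTTTG for HNF4, and the HNF1 motif was searched by its palindromic consensus. A match is a description of the letters, and a missing match says nothing about the factor.

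The values are log2 intensities made by the authors with RMA, and every level or difference below is on that scale unless it is called a fold. Array medians over all probe sets were 4.71 to 4.78 and mark the region near the floor, where changes are compressed. Within a group, arrays correlated with each other at 0.994 to 0.997 (Pearson's r over genes, which are not independent), and no file was a copy of another. Since nothing says that the 3 samples of a group were separate cultures, every p-value below reflects the scatter of these samples alone, and that scatter may be technical. The label of the line was checked with hepatocyte markers: all 7 measured of 9 listed stood well above the medians in every group, with group means between 9.34 and 13.53. The fibroblast markers DCN and LUM, the 2 measured of 7 listed, stood at 2.97 to 3.25, below every array median. Of 4 measured endothelial markers, 1 stood above the median in siCtrl and 0 in the other groups. But 3 of 4 measured lung epithelial markers and 2 of 4 enterocyte markers stood above it in every group. A level above the medians therefore does not mark a cell type here. CES1 is also known from monocytes, and of the 6 measured monocyte markers 5 stood above the medians in every group, LYZ among them with group means of 11.6 to 12.7, while CD163 stood at 3.17 to 3.53.

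CES1 was lowest after knockdown of the full-length form, about level with siCtrl after knockdown of the truncated form, and highest after knockdown of both. On its brighter probe set, 16826639, which stands for the gene in the fits, the 3 sißCat-WT arrays read 7.27, 6.76 and 6.88, against 8.62, 8.63 and 8.54 in siCtrl. Every sißCat-WT array lay below every siCtrl array. The sißCat-mut arrays read 8.67, 8.60 and 8.21, overlapping siCtrl, with the third array below all controls. The sißCat-both arrays read 10.52, 10.32 and 10.78, all above siCtrl. Group means were 6.97 ± 0.27 in sißCat-WT, 8.495 ± 0.25 in sißCat-mut, 10.54 ± 0.23 in sißCat-both and 8.60 ± 0.05 in siCtrl (SD, n = 3 arrays each).

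These means put CES1 3.09-fold lower after sißCat-WT than after siCtrl (log2 difference -1.63 ± 0.15, SE of the limma fit). After sißCat-both CES1 was 3.84-fold higher than after siCtrl (1.94 ± 0.15). After sißCat-mut the difference from siCtrl was -0.10 ± 0.15, smaller than the spread within the sißCat-mut group. Without the third sißCat-mut array it was 0.04. Knockdown of both forms left CES1 11.9-fold higher than knockdown of the full-length form alone, the widest gap between any pair of groups.

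The second CES1 probe set, 16819152, showed a like pattern with smaller steps. Its sißCat-WT arrays read 6.41, 6.52 and 6.57, its sißCat-mut arrays 7.50, 7.54 and 7.13, its sißCat-both arrays 8.73, 8.48 and 8.93, and its siCtrl arrays 7.26, 7.41 and 7.38. The sißCat-WT arrays were again all below siCtrl and the sißCat-both arrays all above it, while sißCat-mut overlapped siCtrl. The differences from siCtrl were -0.85 ± 0.12 after sißCat-WT, 0.04 ± 0.12 after sißCat-mut and 1.36 ± 0.12 after sißCat-both, so the size of each CES1 change depends on the probe set and its direction after sißCat-WT and sißCat-both does not.

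AADAC was likewise lowest after sißCat-WT and highest after sißCat-both. Its arrays read 4.03, 3.82 and 3.89 after sißCat-WT, against 4.94, 4.86 and 5.15 in siCtrl. The sißCat-WT values are all below the array medians. After sißCat-mut they read 5.34, 5.53 and 5.37, and after sißCat-both 7.99, 8.02 and 8.58. No group of AADAC overlapped another, in the order sißCat-both, sißCat-mut, siCtrl and sißCat-WT. Group means were 3.91 ± 0.11 in sißCat-WT, 5.41 ± 0.10 in sißCat-mut, 8.19 ± 0.33 in sißCat-both and 4.98 ± 0.15 in siCtrl (SD, n = 3 arrays each).

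**Figure D1:**
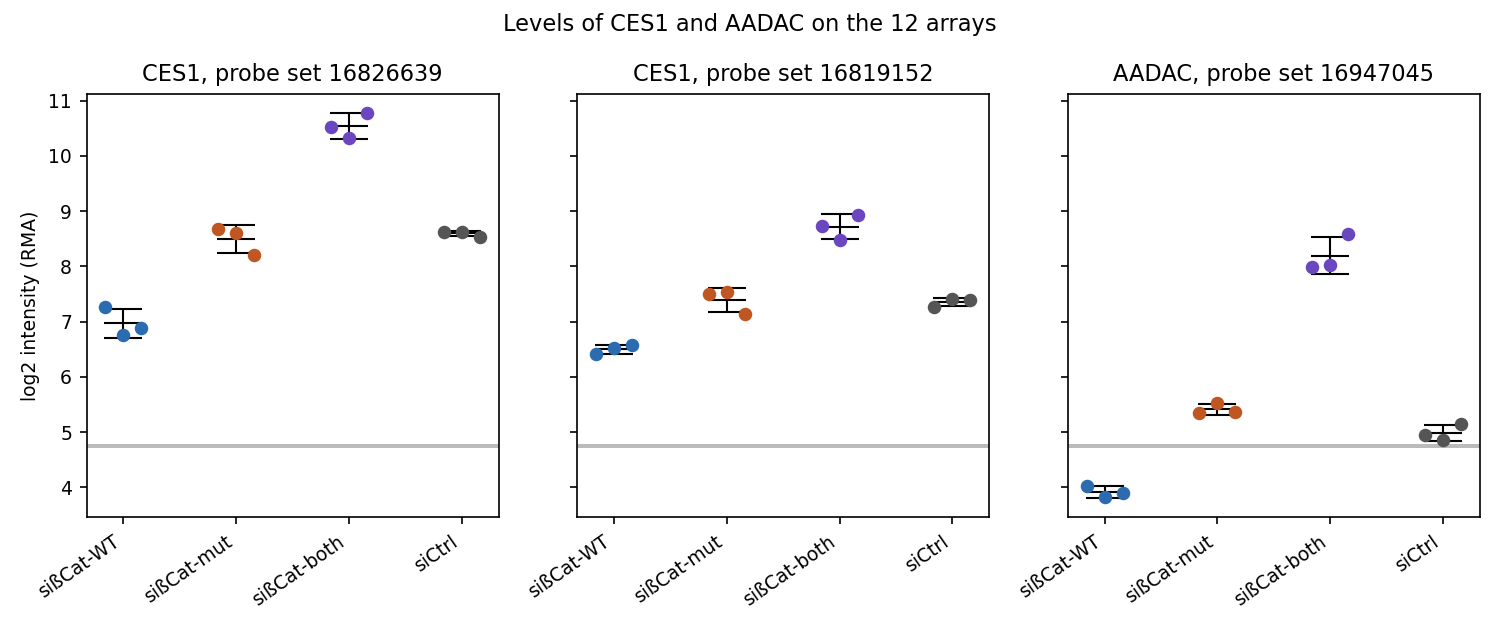
Each point is 1 array, with log2 intensity on the vertical axis and the siRNA group on the horizontal axis. Black marks give the mean and SD of the 3 arrays, and the grey band the range of the array medians. On all 3 probe sets the sißCat-WT arrays are lowest and the sißCat-both arrays highest.

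AADAC differed from siCtrl by -1.07 ± 0.14 after sißCat-WT, by 0.43 ± 0.14 after sißCat-mut and by 3.21 ± 0.14 after sißCat-both (SE of the limma fit). Because the siCtrl level of 4.98 is close to the floor, the true size of these steps is uncertain. The last difference was the 13th highest of 14884 genes in that comparison, and the CES1 difference was the 57th highest. After sißCat-WT, CES1 had the 6th lowest difference of all genes and AADAC the 35th lowest.

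The knockdowns were also compared with each other. AADAC was higher by 2.78 ± 0.14 after sißCat-both than after sißCat-mut, the highest difference of any of the 14884 genes, and CES1 by 2.04 ± 0.15, the 12th highest. After sißCat-both against sißCat-WT the differences were 4.28 ± 0.14 for AADAC and 3.57 ± 0.15 for CES1, ranks 7 and 12. After sißCat-mut against sißCat-WT they were 1.50 ± 0.14 and 1.53 ± 0.15, close to each other. These ranks describe genes that were picked with such differences known.

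Both genes departed from a simple sum of the single knockdowns. Added together, the differences after sißCat-WT and sißCat-mut would put AADAC at -0.64 and CES1 at -1.73 relative to siCtrl, while sißCat-both stood at 3.21 and 1.94. The departure was 3.85 ± 0.19 for AADAC and 3.67 ± 0.21 for CES1, the 3rd and 4th highest of all genes. On the second CES1 probe set it was 2.18 ± 0.17. Among all genes, 7.6% departed upward at a limma adjusted p under 0.05.

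**Figure D2:**
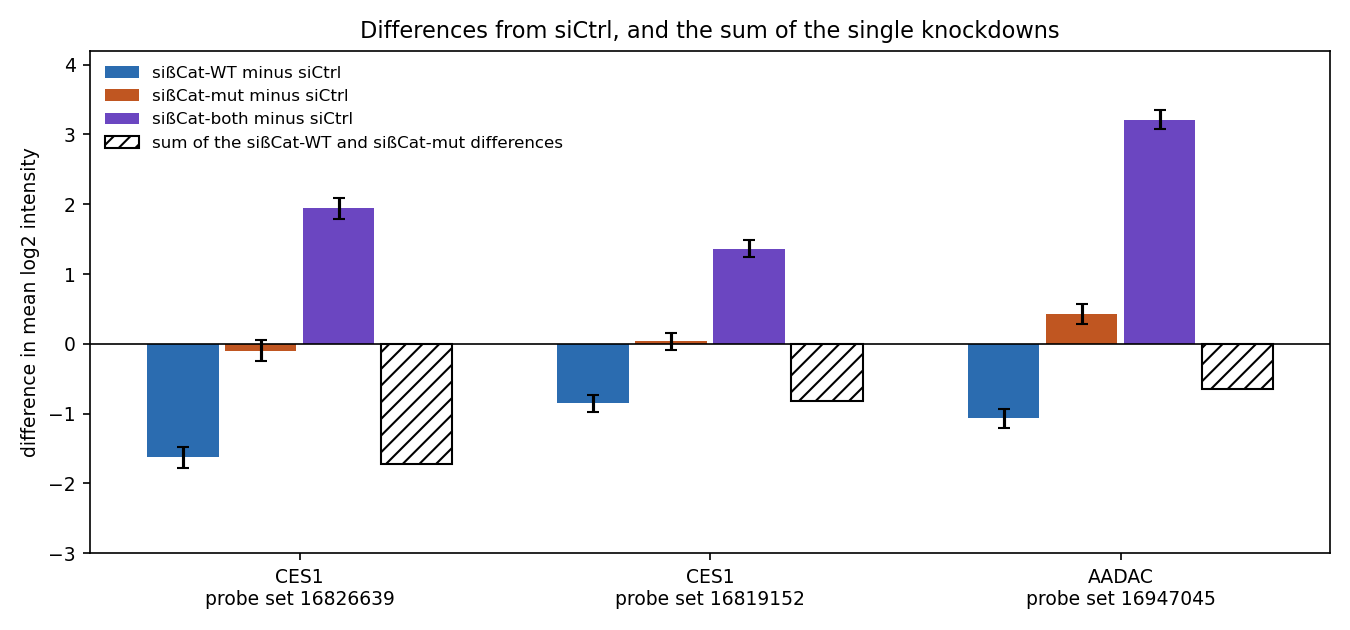
Bars give the difference in mean log2 intensity from siCtrl for each probe set, with the SE of the fit. Hatched bars give the sum of the sißCat-WT and sißCat-mut differences; all 3 sums lie below 0 and all 3 sißCat-both bars above it.

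All 3 probe sets of the 2 genes had sißCat-WT arrays entirely below siCtrl, as did 14.8% of all genes tested, and sißCat-both arrays entirely above siCtrl, as did 20.7%. Against sißCat-WT, all 3 were without overlap higher after sißCat-mut (20.2% of all genes) and after sißCat-both (20.2%), and all 3 were higher after sißCat-both than after sißCat-mut (16.2%). Of the 3, only the AADAC probe set lay entirely above siCtrl after sißCat-mut (20%). Since the genes were chosen on these arrays, nothing is read from these shares.

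The likeness of CES1 and AADAC to each other and to other genes was measured as the root mean square difference of log2 values over the 12 arrays, after each gene was centred on its own mean. CES1 and AADAC differed by 0.48 on this measure, set against a spread of 1.28 for CES1 and 1.59 for AADAC around their own means. Among 13013 genes with ordinary symbols, AADAC was the 5th nearest to CES1 and CES1 the 2nd nearest to AADAC. Nearest to CES1 was SNAP25-AS1, an antisense RNA, at 0.29, followed by BHMT at 0.35, HULC at 0.45, PRLR at 0.47 and, after AADAC, HPR at 0.49. Nearest to AADAC was OTC at 0.42, followed by CES1, HULC at 0.50, BHMT at 0.53, DKK4 at 0.55 and OSBPL6 at 0.57. The arrays form 4 separate groups, so this describes the group pattern and carries no test.

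OTC, the ornithine carbamoyltransferase of the urea cycle, read 3.59, 4.09 and 4.26 after sißCat-WT, 6.33, 6.14 and 6.34 after sißCat-mut, and 8.08, 7.82 and 8.54 after sißCat-both, against 5.15, 5.48 and 5.61 in siCtrl. Like AADAC, its 4 groups did not overlap. BHMT, which passes a methyl group from betaine to homocysteine, read 6.34, 6.01 and 6.28 after sißCat-WT, 7.74, 7.65 and 7.30 after sißCat-mut, and 9.52, 8.999 and 9.34 after sißCat-both, against 7.05, 7.17 and 6.77 in siCtrl. HULC, a long non-coding RNA named for its high level in liver cancer, had differences of -0.76 after sißCat-WT, 1.07 after sißCat-mut and 2.59 after sißCat-both. PRLR, the prolactin receptor, had -0.92, 0.60 and 1.59 in the same order. All 4 also departed from additivity upward, as CES1 and AADAC did: OTC by 3.31, BHMT by 2.51, HULC by 2.28 and PRLR by 1.91 (limma adjusted p = 5.03e-06, 7.57e-06, 2.16e-06 and 2.5e-06, n = 3 arrays per group). These genes were picked for their likeness, so the agreement is built into the choice.

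**Figure D3:**
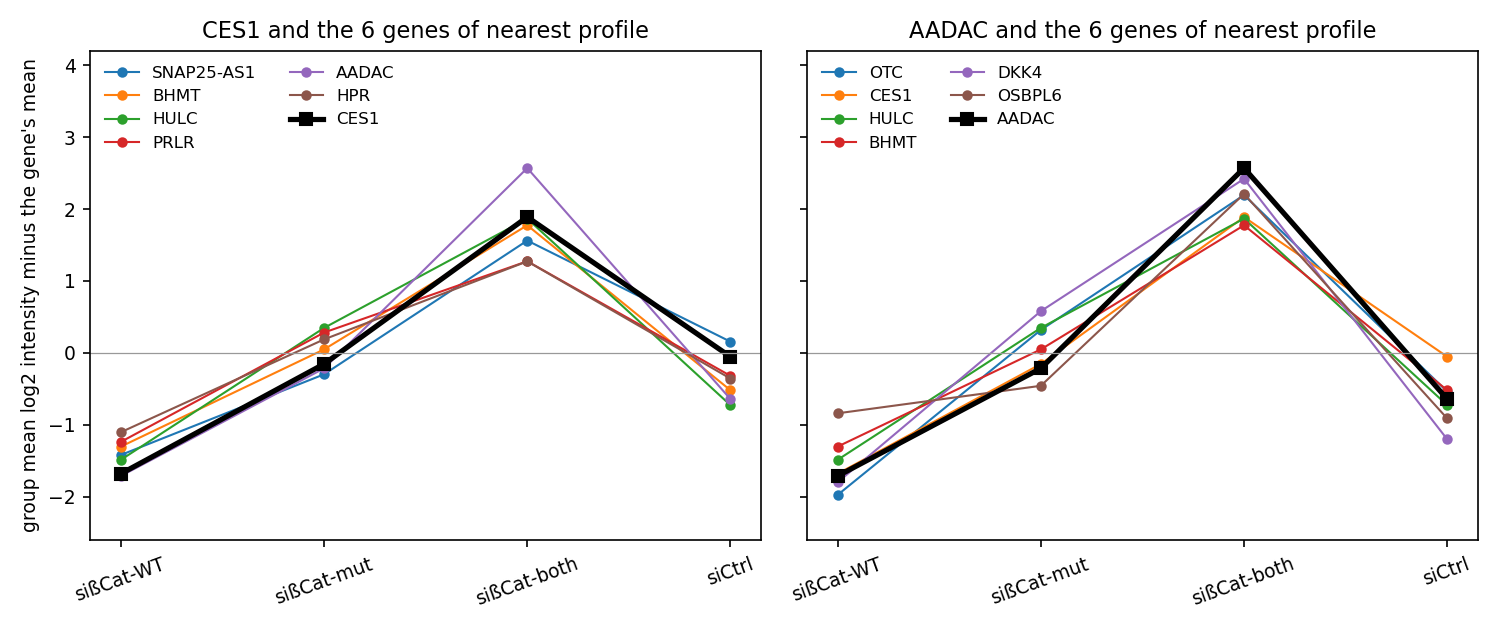
Group mean log2 intensity minus the gene's mean over the 4 groups is plotted for CES1 (left, black squares) and AADAC (right, black squares) with the 6 nearest genes of each. Lines only join the values of 1 gene; all lines peak at sißCat-both.

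Relatives of the esterases were compared in the same way. Besides CES1 and AADAC, 8 of the other 10 listed genes of the carboxylesterase and AADAC families, pseudogenes included, were measured; CES2 and CES3 are not analysed here. After sißCat-WT 1 of the 8 rose and 0 fell, where 5.2% of all genes rose and 4.97% fell. After sißCat-mut and after sißCat-both 0 of the 8 passed the limma test, with 2 and 1 of them at an unadjusted p under 0.05. Of all genes 12% rose and 13.6% fell after sißCat-mut, and 15.5% rose and 18.1% fell after sißCat-both. Under the alternatives up to 2 of the 8 passed after sißCat-mut and up to 1 after sißCat-both. The median differences of the 8 were 0.02, -0.02 and 0.08, beside 0.0054, 0.011 and -0.0062 over all genes.

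The member that rose was NCEH1, a membrane hydrolase of cholesteryl esters and ether lipids related to AADAC. It read 8.93, 9.29 and 9.44 after sißCat-WT, against 8.23, 8.56 and 8.72 in siCtrl, with no overlap (0.72 ± 0.14, SE, limma adjusted p = 0.00552, n = 3). CES1 and AADAC were lower in the same arrays. After sißCat-mut NCEH1 differed by -0.40 ± 0.14 (adjusted p = 0.0557), which passed under 8 alternatives, among them without siCtrl replicate 1 (adjusted p = 0.016). The remaining members AADACL2, AADACL3, AADACL4, CES4A and CES5A had group means of 3.62 to 4.997, near or under the array medians, and no difference from siCtrl beyond 0.35.

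Pseudogenes close to each gene bear on how its probes are read. CES1P1 lies beside CES1 on chromosome 16 and is a near copy, so signal may be shared. CES1P1 differed from siCtrl by -0.08, 0.01 and 0.34 after sißCat-WT, sißCat-mut and sißCat-both (adjusted p = 0.875, 0.972 and 0.177). Only without the first sißCat-both array did it pass, at 0.55 (adjusted p = 0.0175). CES1P2 stayed between 5.78 and 5.87 in all 4 groups. AADACP1, beside AADAC on chromosome 3, read 2.93, 2.96 and 2.98 after sißCat-WT and 3.41, 3.90 and 4.52 after sißCat-both, against 3.41, 3.59 and 3.83 in siCtrl. Its levels are below the array medians throughout, its difference after sißCat-WT was -0.65 ± 0.20 (adjusted p = 0.0616, between 0.00552 and 0.0393 in the 5 settings that changed the call), and its departure from additivity was 1.39 (adjusted p = 0.00449).

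**Figure D4:**
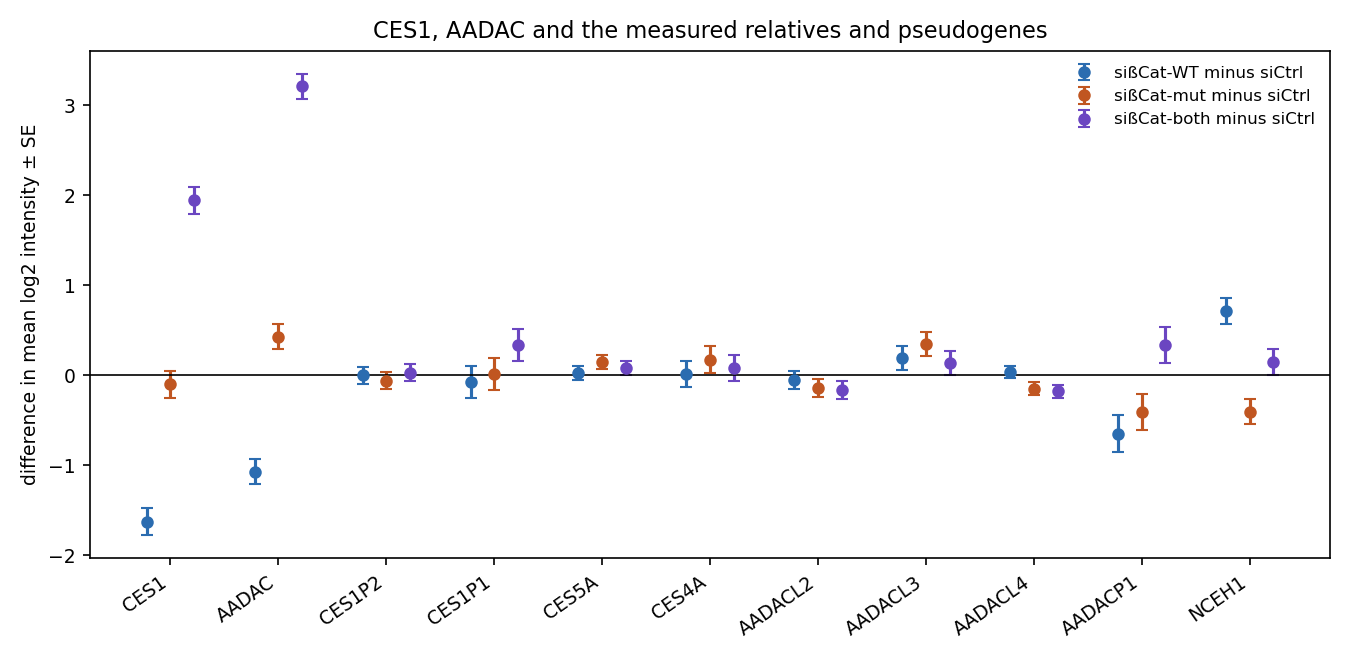
Differences in mean log2 intensity from siCtrl, with the SE of the fit, for CES1, AADAC and their measured relatives and pseudogenes. CES1 and AADAC reach 1.94 and 3.21 after sißCat-both, and every relative or pseudogene is at 0.34 or lower there.

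The nearest measured genes on each side of either locus were also compared, some of them far from it. LPCAT2, a lysophospholipid acyltransferase gene 3 measured genes before CES1, fell by 1.99 after sißCat-mut and by 1.58 after sißCat-both (adjusted p = 4.38e-07 and 1.62e-06), with -0.10 after sißCat-WT. On the other side of CES1, CES5A, GNAO1-DT and MIR3935 differed from siCtrl by 0.32 or less in all 3 comparisons, with none called, although GNAO1-DT passed after sißCat-both with the replicate block (0.32, adjusted p = 0.0393) and without sißCat-both replicate 1 (0.42, adjusted p = 0.0153). Around AADAC, SUCNR1, the succinate receptor, stood at 2.81 to 3.01 in all groups, GPR171 at 3.78 to 3.99 and ARHGEF26-AS1 at 3.99 to 4.13. All these levels are below the array medians, where changes are compressed. GPR171 ends at chr3:151203216 and ARHGEF26-AS1 starts at chr3:154024401, so neither adjoins AADAC. The splicing regulator MBNL1 was higher by 0.32, 0.35 and 0.34 after the 3 knockdowns (adjusted p = 0.019, 0.0045 and 0.00333), calls that ended with the mean of its probe sets (adjusted p = 0.153, 0.0657 and 0.379), the first also without 1 of 4 single arrays.

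Among other hydrolases of esters, PON1, a serum lactonase made by the liver, was the named gene with the largest change. PON1 read 4.84, 4.65 and 5.24 after sißCat-WT, 6.53, 6.76 and 6.38 after sißCat-mut, and 8.16, 8.24 and 8.35 after sißCat-both, against 4.98, 4.61 and 5.13 in siCtrl. It rose by 3.34 ± 0.15 after sißCat-both and by 1.65 ± 0.15 after sißCat-mut (SE, limma adjusted p = 5.57e-09 and 4.14e-06, n = 3), and it overlapped siCtrl after sißCat-WT. The siCtrl mean of PON1, 4.91, is close to the floor, so a fall after sißCat-WT may be hidden. Of 24 measured genes of this list 3 rose and 3 fell after sißCat-WT, 8 rose and 4 fell after sißCat-mut, and 11 rose and 4 fell after sißCat-both; without sißCat-mut replicate 2 the total after sißCat-mut was 7, not 12. Over all genes 5.2% rose and 4.97% fell after sißCat-WT, 12% and 13.6% after sißCat-mut, and 15.5% and 18.1% after sißCat-both. The 4 that fell after sißCat-mut and the 4 that fell after sißCat-both are near these shares. ACOT12, an acetyl-CoA thioesterase, rose by 1.01 after sißCat-both from the array floor.

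Lipid genes were listed because both esterases act on stored lipid. Of 12 genes of triglyceride and cholesteryl ester synthesis 5 fell and 1 rose after sißCat-WT, 7 rose and 1 fell after sißCat-mut, and 6 rose and 3 fell after sißCat-both, with medians of -0.24, 0.61 and 0.31. Over all genes 5.2% rose and 4.97% fell after sißCat-WT, 12% and 13.6% after sißCat-mut, and 15.5% and 18.1% after sißCat-both. SOAT2, the cholesterol acyltransferase of hepatocytes, read 8.88, 8.63 and 8.64 after sißCat-WT, against 10.17, 10.04 and 10.25 in siCtrl (-1.44 ± 0.09, adjusted p = 5.3e-06). SOAT2 rose by 0.87 after sißCat-mut (adjusted p = 1.46e-05). After sißCat-both SOAT2 differed from siCtrl by 0.16 (adjusted p = 0.214), where CES1 and AADAC were far above it. The other named synthesis genes, MOGAT2, MOGAT3 and DGAT2, did rise after sißCat-both, by 1.25, 0.72 and 1.38 (limma adjusted p = 1.52e-06, 2.26e-05 and 5.42e-08). After sißCat-WT they differed by -0.66, -0.77 and 0.28 (limma adjusted p = 0.00188, 0.000117 and 0.0527). MTTP, the transfer protein that loads lipid onto apolipoprotein B, read 9.29, 8.94 and 9.23 after sißCat-WT, against 10.08, 10.16 and 10.13 in siCtrl (-0.97 ± 0.09, adjusted p = 2.02e-05). MTTP differed from siCtrl by 0.015 and -0.13 after sißCat-mut and sißCat-both (adjusted p = 0.934 and 0.327).

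Of 14 genes of VLDL assembly 3 fell and 0 rose after sißCat-WT, 6 rose and 1 fell after sißCat-mut, and 7 rose and 0 fell after sißCat-both; without siCtrl replicate 2 or sißCat-both replicate 1 the last total was 4. Of 22 genes of lipases and lipid droplets 6 fell and 2 rose after sißCat-WT, 8 rose and 3 fell after sißCat-mut, and 8 rose and 6 fell after sißCat-both. The sißCat-WT total of 8 in that list was 5 without siCtrl replicate 2 or sißCat-WT replicate 3 and 4 without sißCat-WT replicate 2. Against the shares of all genes that rose and fell (5.2% and 4.97% after sißCat-WT, 12% and 13.6% after sißCat-mut, 15.5% and 18.1% after sißCat-both), the 3 lipase genes that fell after sißCat-mut are at the background. CIDEC, a lipid droplet protein, fell by 1.11 after sißCat-WT and rose by 1.28 after sißCat-mut (adjusted p = 0.000222 and 1.52e-05). ABHD5, the co-activator of adipose triglyceride lipase, rose by 1.48 after sißCat-both (adjusted p = 3.75e-07).

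The listed genes of drug metabolism were only partly measured, and no drug transporter of the 21 listed is analysed here. Of 15 phase 1 genes 6 fell and 0 rose after sißCat-WT, 6 rose and 2 fell after sißCat-mut, and 9 rose and 1 fell after sißCat-both, with medians of -0.27, 0.16 and 0.59. The shares of all genes were 5.2% higher and 4.97% lower after sißCat-WT, 12% and 13.6% after sißCat-mut, and 15.5% and 18.1% after sißCat-both, so the 2 that fell after sißCat-mut are near the background. DPYD had the largest change of the named phase 1 genes. It rose by 2.76 after sißCat-mut and 3.98 after sißCat-both (limma adjusted p = 1.21e-08 and 2.7e-10), with 0.10 after sißCat-WT. The siCtrl mean of DPYD, 4.70, is near the array medians. FMO1, a flavin monooxygenase, differed by 0.07 and 0.02 after the single knockdowns and rose by 1.78 after sißCat-both (limma adjusted p = 3.97e-07). Its means of 3.36 in siCtrl, 3.43 in sißCat-WT and 3.38 in sißCat-mut lie below the array medians, so a fall could hardly be seen. MAOB, a monoamine oxidase, fell by 1.45 after sißCat-WT (limma adjusted p = 3.17e-05). Of 24 phase 2 genes 7 fell and 0 rose after sißCat-WT, 12 rose and 0 fell after sißCat-mut, and 11 rose and 4 fell after sißCat-both, with medians of -0.13, 0.29 and 0.20; the 4 that fell are near the 18.1% of all genes. The thiopurine methyltransferase TPMT fell by 0.92 after sißCat-WT, with 0.19 after sißCat-mut, and rose by 0.40 after sißCat-both. The glutathione transferases GSTA1 and GSTA2, near copies of each other, were the genes with a higher departure from additivity than AADAC and CES1, at 4.38 and 5.19, and they rose by 2.51 and 2.59 after sißCat-mut.

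**Figure D5:**
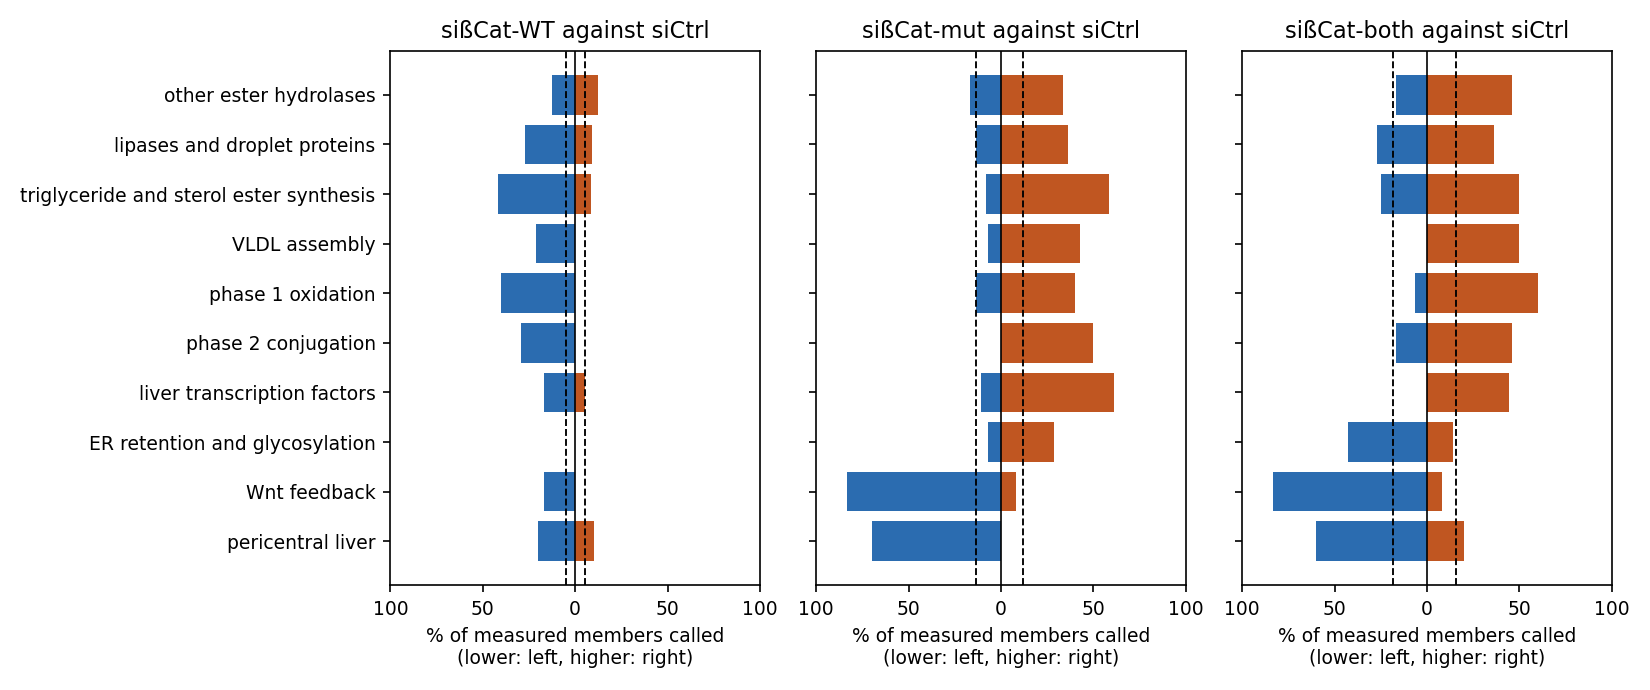
For each gene list, bars give the percent of measured members called lower (left, blue) or higher (right, orange) than siCtrl at a limma adjusted p under 0.05, with CES1 and AADAC left out. Dashed lines give the same percent over all 14884 genes. Some lists share genes.

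Regulators of liver genes, compartment genes and Wnt feedback genes complete the setting of CES1 and AADAC. Of 18 measured liver transcription factors 3 fell and 1 rose after sißCat-WT (2 in all without siCtrl replicate 1 or 2 or sißCat-WT replicate 3), 11 rose and 2 fell after sißCat-mut, and 8 rose and 0 fell after sißCat-both. Of all genes 5.2% rose and 4.97% fell after sißCat-WT, 12% and 13.6% after sißCat-mut, and 15.5% and 18.1% after sißCat-both. PPARA, the fatty acid receptor, fell by 0.60 after sißCat-WT and rose by 0.89 and 1.39 after sißCat-mut and sißCat-both (adjusted p = 0.00174, 2.09e-05 and 2.39e-07). ONECUT1 rose by 1.80 and 2.15 after sißCat-mut and sißCat-both and differed by 0.10 after sißCat-WT. Of 14 genes of endoplasmic reticulum retention and glycosylation 0 passed limma's test after sißCat-WT (1 at an unadjusted p under 0.05), 4 rose and 1 fell after sißCat-mut (3 or 2 in all without 1 of 5 arrays), and 2 rose and 6 fell after sißCat-both, where CES1 and AADAC were highest and where 2 that rose are near the 15.5% of all genes. UGGT1, the glucosyltransferase that checks glycoprotein folding, fell by 1.09 there (adjusted p = 1.98e-07).

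Wnt feedback genes stand for the activity that β-catenin is known for. Of 12 measured genes 10 fell and 1 rose after sißCat-mut, and likewise 10 and 1 after sißCat-both, with medians of -2.22 and -2.28. After sißCat-WT 2 fell and 0 rose, with a median of -0.03. Without sißCat-both replicate 1, 5 passed, and 7 passed in a fit of these groups alone. The calls gained in that last fit include rises, of AXIN2 by 0.43 and NKD1 by 0.46 (limma adjusted p = 0.01 and 0.00326). The directions of the other added calls are not given here. Of 10 pericentral liver genes, some of them the same, 2 fell and 1 rose after sißCat-WT, 7 fell and 0 rose after sißCat-mut, and 6 fell and 2 rose after sißCat-both. The background over all genes was 5.2% higher and 4.97% lower after sißCat-WT, 12% and 13.6% after sißCat-mut, and 15.5% and 18.1% after sißCat-both. AXIN2, a direct Wnt target, fell by 3.47 after sißCat-mut and by 3.02 after sißCat-both, and LGR5, the R-spondin receptor, by 4.49 and 3.18. The gene of this list that rose was DKK4, a secreted Wnt antagonist and one of the genes nearest to AADAC in profile, by 1.78 and 3.62.

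Of the 7 hepatocyte markers, 1 fell and 0 rose after sißCat-WT (0 without sißCat-WT replicate 2), 6 rose after sißCat-mut and 7 after sißCat-both, with medians of -0.14, 0.38 and 0.46, and their log2 levels summed to 82.8 to 83.6 in sißCat-WT, 88.5 to 89.0 in sißCat-mut, 88.2 to 88.4 in sißCat-both and 84.0 to 84.6 in siCtrl. Between sißCat-both and sißCat-mut, TTR was lower by 0.54 in sißCat-both (limma adjusted p = 8.41e-05). Among 6 measured of 9 monocyte markers 1 rose and 0 fell after sißCat-WT, 1 rose and 1 fell after sißCat-mut, and 3 rose and 1 fell after sißCat-both, with summed levels of 42.8 to 43.0, 42.3 to 43.1 and 41.6 to 43.4, against 41.7 to 42.1 in siCtrl. Shares over all genes were 5.2% higher and 4.97% lower after sißCat-WT, 12% and 13.6% after sißCat-mut, and 15.5% and 18.1% after sißCat-both. The call after sißCat-WT was CD14 and ended without siCtrl replicate 1 or sißCat-WT replicate 1 or 2 (adjusted p = 0.0729, 0.0515 and 0.0625), and the fall after sißCat-mut was LYZ and ended with the mean of its probe sets (adjusted p = 0.0725). CD14 rose by 0.70 after sißCat-both, and LYZ, high in these cells, fell by 1.13. Of the 14 measured markers of fibroblasts, endothelium, enterocytes and lung epithelium, VIL1 fell after sißCat-WT, VIL1 and VWF rose after sißCat-mut (VWF not without 1 of 4 single arrays), and VWF rose after sißCat-both. The group means of VWF, 4.24 to 4.61, lie below every array median. These calls are near or under the shares over all genes. The part of these markers in the levels of CES1 and AADAC was not tested. All samples are labelled as 1 cell line. In its bulk RNA, fewer cells with a transcript and less of that transcript per cell cannot be told apart.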

How the data were processed

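The 12 arrays (3 for each siRNA group, grouped and numbered by the sample titles) carry 53617 probe sets. Their deposited values are on the log2 scale, judged from their range, and come, as the submitters' processing notes list it, from RMA as run by the authors in Expression Console 1.1. That method equalises the distribution of every array, so a shift common to most genes cannot be seen, and it narrows changes near the floor. The sources used here do not state whether probe sets stand for genes or exons.

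The platform table gave 1 symbol to 16098 probe sets, several to 0 and none to 37519. Where a symbol had more than 1 probe set (779 genes) the brightest on average was kept, leaving 14884 genes. limma 3.58.1 in R 4.3.3 (lmFit, eBayes) estimated 4 group means with 8 residual degrees of freedom. Tests were two-sided, Benjamini-Hochberg adjustment ran over all genes of each comparison, and calls needed an adjusted p under 0.05. CES1, AADAC and all gene lists were chosen with earlier results of these data known. List counts leave both genes out. Named genes are all measured family members, at most 4 called genes per other list with the largest difference from siCtrl (2 for other cell types), the 6 genes nearest in profile to either esterase, and 3 measured neighbours on each side; CD163 was added because CES1 is known from monocytes, after its values were seen. The test was checked on simulated data. Figures used matplotlib 3.10.9 in Python 3.11.15.

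Same-numbered arrays of sißCat-both and sißCat-WT deviated together (correlations of 0.115, 0.155 and 0.134, all above 0.1), so these count as paired; the labels give no reason for it. No other comparison had all 3 correlations above 0.1.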

Additional observations from a re-analysis of the deposited data

Results flagged for a closer look

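CES1 and AADAC both lay below siCtrl after sißCat-WT and above it after sißCat-both, on every array. The gap between sißCat-both and sißCat-WT was 3.57 and 2.21 on the 2 CES1 probe sets and 4.28 for AADAC; it was not tested, because these values chose the genes.

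Of the other genes named, 12 fell after sißCat-WT, rose after sißCat-both and departed from additivity by at least 1 on the log2 scale, by limma's test of that departure. Over all genes 4.97% fell after sißCat-WT, 15.5% rose after sißCat-both and 7.6% departed upward by any amount. The share of all genes that met these conditions together was not computed. Many named genes were picked for large changes or for likeness, so nothing is read from the count. The urea cycle enzyme gene OTC departed by 3.31 (adjusted p = 5.03e-06), BHMT by 2.51 (7.57e-06), HULC by 2.28 (2.16e-06), PRLR by 1.91 (2.5e-06), HPR by 1.83 (7.96e-06), SNAP25-AS1 by 3.43 (7.18e-07) and DKK4 by 2.44 (2.81e-06). All 7 were named for their likeness to CES1 or AADAC, so that choice fixes the direction of the departure and their p-values support nothing. From the gene lists came GSTA1 at 4.38 (2.53e-07), GSTA2 at 5.19 (7.18e-07), MAOA at 1.41 (0.000199), TPMT at 1.12 (2.71e-05) and PPARA at 1.0997 (0.000193). The fall of MAOA after sißCat-WT lost its call without any 1 of 5 single arrays (adjusted p between 0.0509 and 0.106). HPR is a near copy of HP and GSTA1 of GSTA2, so single values may share signal.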

How the results depend on the processing

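The size of the CES1 differences depended on the probe set. With the mean of both probe sets they were -1.24 after sißCat-WT and 1.65 after sißCat-both against siCtrl, 1.21 for sißCat-mut against sißCat-WT, 2.89 for sißCat-both against sißCat-WT, 1.68 for sißCat-both against sißCat-mut, and 2.92 for the departure from additivity; with the dimmer probe set alone they were -0.85, 1.36, 0.89, 2.21, 1.32 and 2.18. The other 198 of 210 recomputed values of CES1 and AADAC moved by less than 1 SD. Many of them could not move, because leaving out an array of a group outside a pairwise comparison leaves its difference unchanged. The count is therefore no measure of stability. Leaving out each array in turn, CES1 lay between -1.77 and -1.52 after sißCat-WT, -0.19 and 0.04 after sißCat-mut, and 1.82 and 2.05 after sißCat-both; 1.42 and 1.67 for sißCat-mut against sißCat-WT, 3.45 and 3.72 for sißCat-both against sißCat-WT, 1.90 and 2.15 for sißCat-both against sißCat-mut, and 3.53 and 3.82 for the departure. AADAC lay between -1.13 and -0.99, 0.37 and 0.51, 3.02 and 3.31, 1.44 and 1.555, 4.09 and 4.38, 2.59 and 2.89, and 3.66 and 3.955 in the same order.

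Genes called ranged over the same omissions from 917 to 1616 after sißCat-WT (1513 with all arrays; 950 without siCtrl replicate 2, 917 without sißCat-WT replicate 2 and 957 without sißCat-WT replicate 3), 3094 to 3930 after sißCat-mut, 4364 to 4998 after sißCat-both, 3983 to 4754 for sißCat-mut against sißCat-WT, 4820 to 5387 for sißCat-both against sißCat-WT, 2590 to 3371 for sißCat-both against sißCat-mut, and 1912 to 2589 for the departure. All lists together gave 37 to 51, 76 to 92 and 86 to 99 called genes. With the replicate block, 5623 genes were called for sißCat-both against sißCat-WT, against 5383 without it, and the block moved no count of all genes by over 1.5 times. In single lists 48 of 963 counts moved by over 1.5 times. Of 4053 values of named genes 60 lost a call, 40 gained one and 0 reversed; the cause was not tested. The number of arrays limits the precision, and AADAC in siCtrl and sißCat-WT lies near the floor.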
